A study of Gallus gallus with 2 samples.

Results

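The genes that supply deoxynucleotides for DNA synthesis were compared between PTIP deficient and wild-type DT40 cells. They were 9 genes, found by their symbol in the platform annotation: RRM1, RRM2, RRM2B, TYMS, TK1, TK2, DCK, DUT and DTYMK. The array carried 14 probe sets for them among 38439 that were not manufacturer controls, and each of the 9 genes was found among 13009 named genes. DT40 is an established chicken B cell line from the bursa of Fabricius. The PTIP deficient sample (PTIP-/-/-, every allele labelled as disrupted) was a clone of that line, as was the wild-type sample, and both were grown at 39°C. Total RNA of each was hybridised to 1 Affymetrix chicken genome array, so there were 2 arrays in all, 1 per genotype. No culture, RNA preparation or array was replicated, so no test between genotypes exists and every difference below is given by its size alone. A difference between 2 clones and one due to the genotype cannot be told apart.

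DNA polymerases need balanced pools of deoxynucleoside triphosphates. Ribonucleotide reductase makes most of them by reducing ribonucleoside diphosphates. Its large catalytic subunit is RRM1, and its small radical-bearing subunit is RRM2 in dividing cells or RRM2B, which in human and mouse cells is induced through p53 and serves repair and mitochondrial DNA synthesis outside S phase. Thymidine nucleotides have a route of their own, in which DUT makes dUMP and keeps dUTP out of DNA, TYMS methylates dUMP to dTMP, and DTYMK phosphorylates dTMP. Salvage kinases recover deoxynucleosides: TK1 phosphorylates thymidine in the cytosol of cycling cells, DCK phosphorylates deoxycytidine and purine deoxynucleosides, and TK2 acts on pyrimidine deoxynucleosides in mitochondria.

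The values are linear signal intensities in arbitrary units, scaled by the authors so that the mean between percentiles 2 and 98 was 499.9 in each array. A probe set was called measured where its signal reached 31.0, percentile 40 of all values. A second and stricter level of 131.5 was the second highest signal among 57 probe sets for reporter and marker sequences. PAXIP1, which encodes PTIP, was read by 1 measured probe set, whose signal was 593 in the PTIP deficient array and 1045 in the wild-type array, while its other 2 probe sets were under 31.0 in both. Where that probe set lies relative to the disrupted exons is unknown here, so it does not check the disruption. The ratio of 3' to 5' signal was 1.09 in PTIP deficient and 1.20 in wild-type cells for actin, and 0.98 in PTIP deficient and 1.06 in wild-type cells for GAPDH. The 27 probe sets for control transcripts that are added at hybridisation were all higher in the PTIP deficient array, at a median log2 ratio of 0.30, and the part of that difference in ratios of similar size below was not tested. Since the arrays report bulk RNA, fewer cells with a transcript and less of it per cell cannot be told apart.

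Of the 9 genes, TK2 alone passed 2-fold, with the lower signal in PTIP deficient cells, and the other 8 lay within 2-fold. RRM2B was the next furthest from equality and lay in the opposite direction. TYMS, DUT and TK1, of the thymidylate and thymidine routes, were lower by 1.20-fold to 1.29-fold, and RRM1, DCK and DTYMK had nearly equal signals. Over all 9165 genes that both arrays measured, the share 2-fold or more apart was 9.49%, made up of 5.03% higher and 4.46% lower, so 1 of 9 is near the background. Over the 3652 genes with a mean signal of at least 1000, a range that holds all 9, the share was 4.24%, made up of 82 higher and 73 lower genes. The median log2 ratio of the 9 genes, PTIP deficient minus wild-type, was -0.16, beside 0.03 over all measured genes, and 5 of the 9 were below 0, beside 47.4% of all measured genes.

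**Figure D1:**
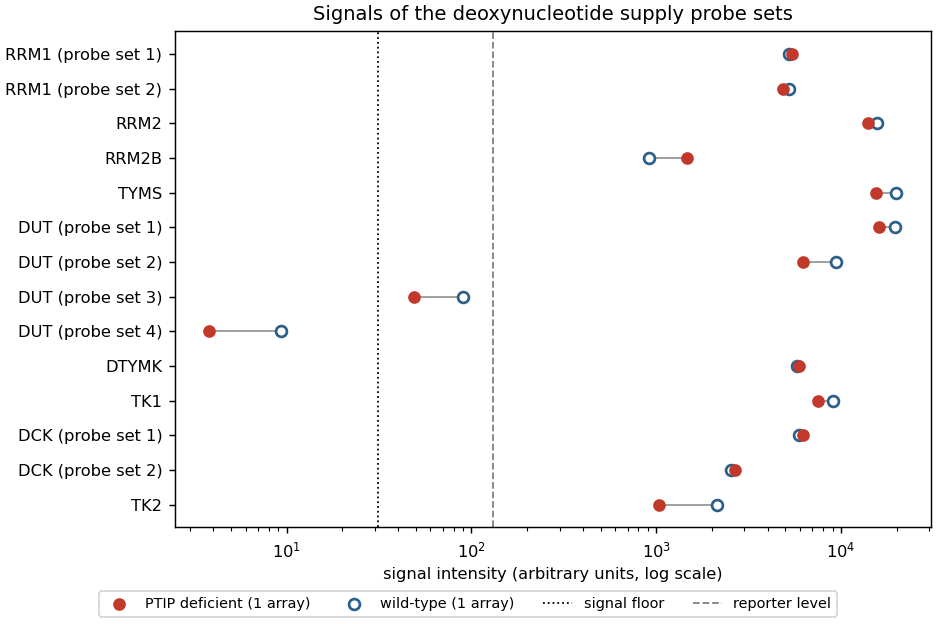
Signal intensity (log scale) of the 14 probe sets, filled points for the PTIP deficient array and open points for the wild-type array, with the signal floor of 31.0 and the reporter level of 131.5 as vertical lines. TK2 lies to the left in PTIP deficient cells and RRM2B to the right, while the points of RRM1, DCK and DTYMK nearly coincide.

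The ribonucleotide reductase subunits differed in direction. RRM1 (Entrez gene 419081) had signals of 5411 in PTIP deficient and 5225 in wild-type cells with one probe set, and of 4838 in PTIP deficient and 5220 in wild-type cells with the other. The 2 probe sets gave log2 ratios of 0.05 and -0.11, on either side of 0. RRM2 (Entrez gene 421936), the S phase small subunit, had a signal of 14054 in PTIP deficient and 15715 in wild-type cells, a log2 ratio of -0.16 or 1.12-fold lower. RRM2B (Entrez gene 420253), the alternative small subunit, had a signal of 1470 in PTIP deficient and 918 in wild-type cells and was 1.60-fold higher (log2 ratio 0.68). The ratio of RRM2B was above that of 89.4% of all measured genes and 94.7% of those with a mean signal of at least 1000. Within the small subunits, the log2 ratio of RRM2B exceeded that of RRM2 by 0.84, so the signal of RRM2B relative to RRM2 was 1.79-fold higher in PTIP deficient cells. Both small subunits had a single probe set each, so neither ratio has a repeat measurement.

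The enzymes that make thymidylate were slightly lower, and the kinase after them was not. TYMS (Entrez gene 421060), the methyltransferase, had a signal of 15414 in PTIP deficient and 19874 in wild-type cells, 1.29-fold lower (log2 ratio -0.37) with 1 probe set. DUT (Entrez gene 769338), the dUTPase, had 4 probe sets, and all 4 were lower in PTIP deficient cells. The brightest DUT probe set had signals of 16034 in PTIP deficient and 19541 in wild-type cells (log2 ratio -0.29), and the next had 6256 in PTIP deficient and 9396 in wild-type cells (log2 ratio -0.59). The third DUT probe set, at 49.0 in PTIP deficient and 90.3 in wild-type cells, was under the reporter level in both arrays, and the last, at 3.81 in PTIP deficient and 9.27 in wild-type cells, was under the floor in both. The direction for DUT thus rests on 2 bright probe sets, whose sizes differ. DTYMK (Entrez gene 770258), the dTMP kinase, had 5923 in PTIP deficient and 5777 in wild-type cells, a log2 ratio of 0.04. Its ratio exceeded that of TYMS by 0.40 on the log2 scale.

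The salvage kinases were spread over a wider range. TK1 (Entrez gene 395719), the cytosolic thymidine kinase, had a signal of 7498 in PTIP deficient and 8999 in wild-type cells, 1.20-fold lower (log2 ratio -0.26). DCK (Entrez gene 422648) had 6236 in PTIP deficient and 5938 in wild-type cells with one probe set, and 2674 in PTIP deficient and 2522 in wild-type cells with the other, at log2 ratios of 0.07 and 0.08. The DCK probe sets therefore gave the same small difference. TK2 (Entrez gene 427551), the mitochondrial kinase, had 1031 in PTIP deficient and 2135 in wild-type cells, 2.07-fold lower (log2 ratio -1.05) or 48.3% of the wild-type signal. Only 4.16% of all measured genes, and 1.89% of those with a mean signal of at least 1000, had a lower ratio than TK2. The log2 ratio of TK2 was 0.79 below that of TK1 and 1.12 below that of DCK. TK2 was read by a single probe set of the kind named _s_at, whose probes can match more than 1 transcript, and DTYMK, RRM1, DCK and the 2 bright probe sets of DUT were read by the same kind.

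The only repeat measurement in these data is that of different probe sets for 1 gene. Among 1042 genes with 2 measured probe sets of mean signal at least 1000, the log2 ratios of the 2 brightest differed with an SD of 0.20. That SD covers probe error and not the spread between cultures or clones. In order of log2 ratio the genes ran from RRM2B (0.68) through DCK, RRM1, DTYMK, RRM2, TK1, DUT and TYMS to TK2 (-1.05). The steps between neighbours from DCK to TYMS were all 0.20 or less, so their order is not settled by the probe sets. The steps from RRM2B down to DCK, 0.61, and from TYMS down to TK2, 0.68, were larger than that SD.

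**Figure D2:**
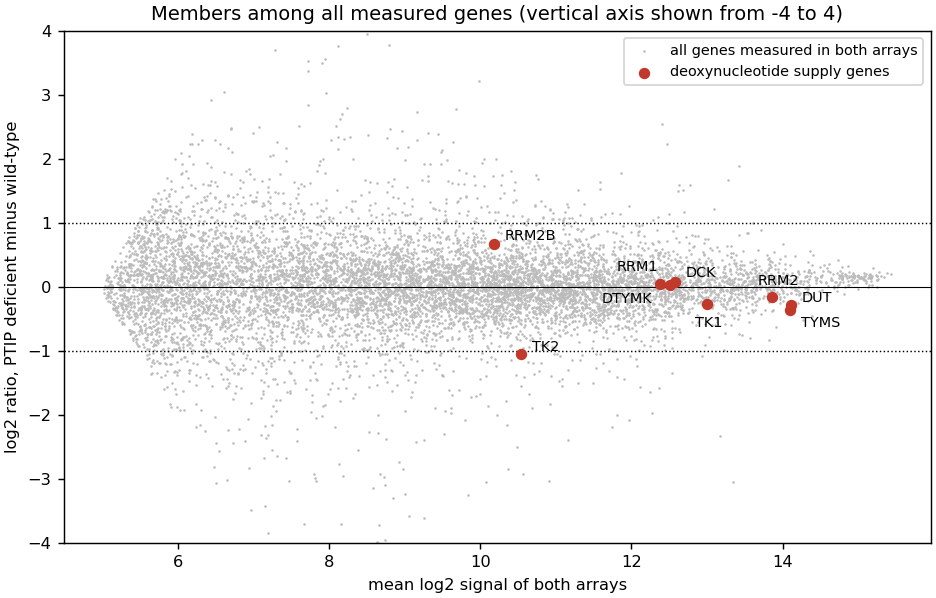
Log2 ratio (PTIP deficient minus wild-type) against mean log2 signal for all 9165 genes measured in both arrays (grey) and the 9 deoxynucleotide supply genes (red), dotted lines marking 2-fold. TK2, at -1.05, lies just past the lower line, and RRM2B, at 0.68, stays inside the upper one.

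The ratios depended little on scaling, and that of DUT depended on the choice of probe set. A different floor leaves the ratio of a probe set unchanged, so the floor settings do not check the ratios. RRM2B stayed between 0.66 and 0.68 over all 9 settings tried and TK2 between -1.06 and -1.05 over the 8 settings in which it could be measured. Both have 1 probe set, so only quantile, median and loess scaling could change their ratios. TYMS ranged from -0.44 to -0.37, RRM2 from -0.22 to -0.16 and TK1 from -0.29 to -0.26. DUT moved furthest, to -0.58 with the mean of its measured probe sets and to -0.88 when _s_at probe sets were left out, the second value resting on the dim probe set under the reporter level. RRM1 changed sign, at -0.03, with the mean of its probe sets.

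**Figure D3:**
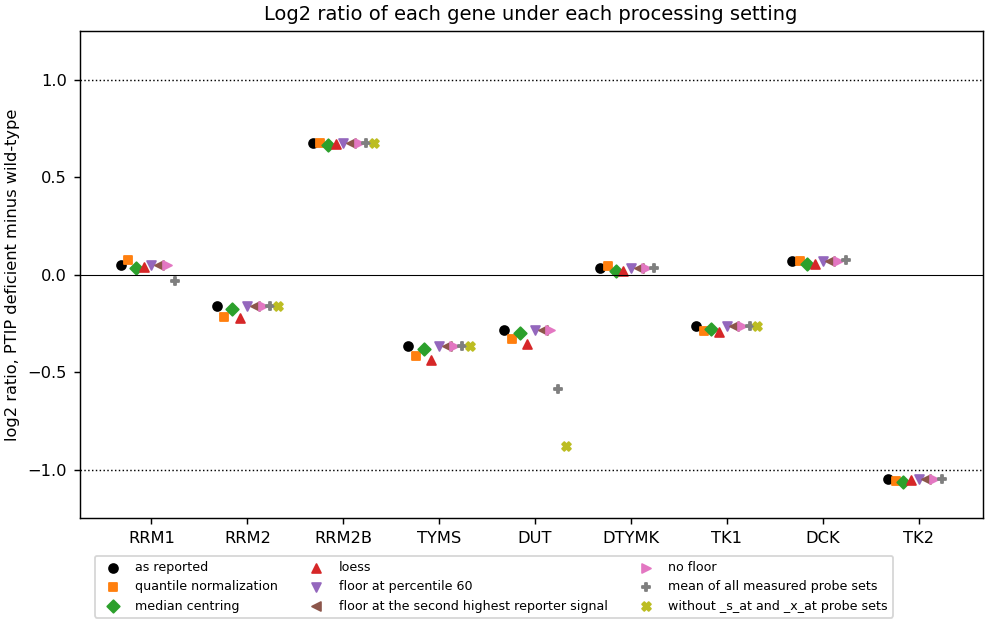
Log2 ratio (PTIP deficient minus wild-type) of each of the 9 genes under the 9 processing settings, 1 marker per setting, dotted lines marking 2-fold. The markers of TK2 lie together just past -1 and those of RRM2B at 0.66 to 0.68, while DUT spreads from -0.88 to -0.29. For TK2 and RRM2B, with 1 probe set each, only the scaling settings could move the markers.

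The 4 measured genes next to TK2 on one side were lower too. In the RefSeq gene order of assembly GRCg7b TK2 lies on chromosome 11 next to CKLF, a chemokine-like factor, followed by its relatives CMTM3 and CMTM4, which encode MARVEL-domain membrane proteins. CKLF had a signal of 616 in PTIP deficient and 2756 in wild-type cells, a log2 ratio of -2.16, and its second measured probe set gave -1.42. CMTM4 had 178 in PTIP deficient and 420 in wild-type cells, with log2 ratios from -1.24 to -0.80 over 3 probe sets. CMTM3 had 1507 in PTIP deficient and 2138 in wild-type cells, with log2 ratios from -0.50 to -0.22 over 3 probe sets. DYNC1LI2, a dynein subunit and the next gene beyond CMTM4, was lower too, with log2 ratios of -0.33 and -0.52 from its 2 probe sets. CA7 beyond it was higher, at 0.81, but both of its signals were under the reporter level. Of the 10 measured genes nearest to TK2, 5 were below 0 and 5 above, with a median of -0.08. On the other side BEAN1 and CDH8 were higher, at log2 ratios of 0.78 and 0.58. Both signals of BEAN1 and the wild-type signal of CDH8 were under the reporter level. The other 239 measured genes of chromosome 11 had a median log2 ratio of 0.04, so the lower signals did not extend over the chromosome. The annotated intervals of TK2 and CKLF overlap in that assembly, as do those of TYMS and the kinase gene YES1, and of DUT and a long noncoding RNA gene. Whether the probe sets of TK2, TYMS or DUT read sequence shared with the overlapping gene was not tested. These neighbours were chosen after their values were seen.

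RRM2B lies on chromosome 2, where the other 763 measured genes had a median log2 ratio of 0.01. Of the 10 measured genes nearest to it, 8 were above 0 with a median of 0.12, and its own ratio was above that of 90.6% of the genes on the chromosome. ODF1, the gene next to it, had a log2 ratio of 1.27 from signals of 114 in PTIP deficient and 47.3 in wild-type cells, both under the reporter level. DTYMK differed from the others in where it lies. The chromosomes of the other 8 genes had median log2 ratios from -0.03 to 0.09, but on chromosome 9, which carries DTYMK, the other 261 measured genes had a median log2 ratio of 0.38 and only 21.1% were below 0. The 10 measured genes nearest to DTYMK had a median of 0.70, with ATG4B at 0.81 and ING5 at 0.88, whereas DTYMK itself was at 0.04.

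**Figure D4:**
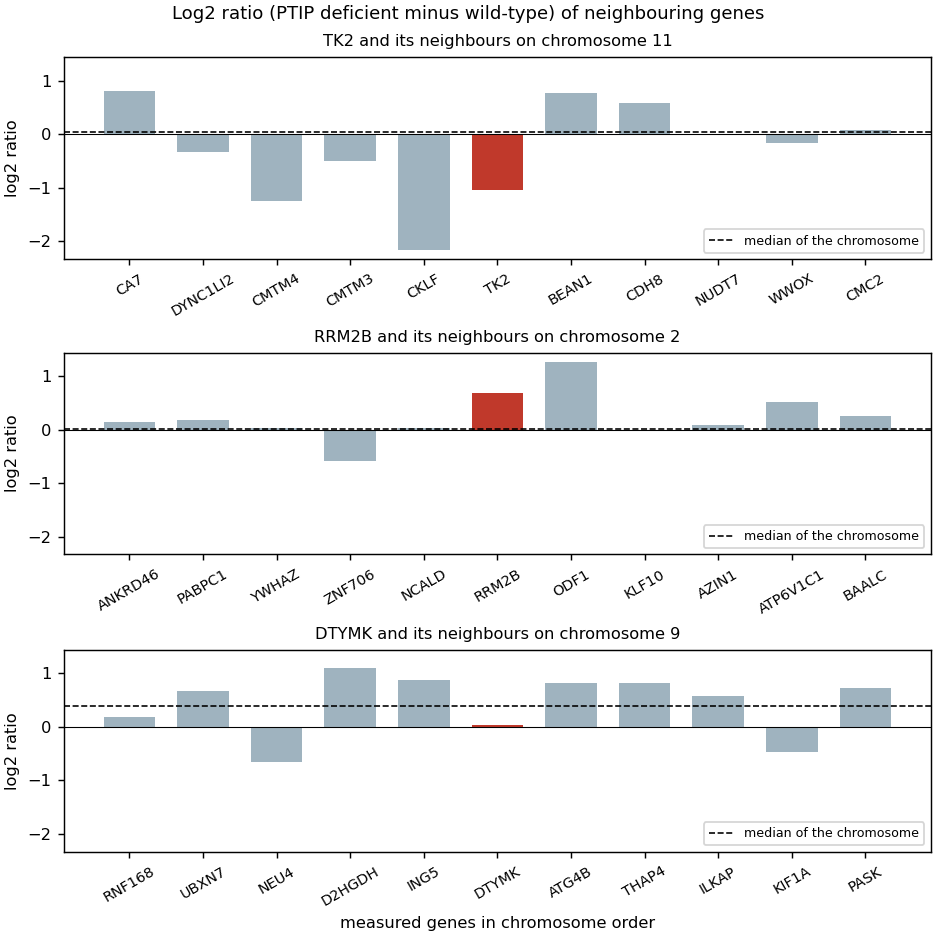
Log2 ratio (PTIP deficient minus wild-type) of TK2, RRM2B and DTYMK (red) and of the 5 measured genes on each side (grey) in chromosome order, the dashed line marking the median of the chromosome. DYNC1LI2, CMTM4, CMTM3, CKLF and TK2 are all below 0, TK2 having 5 of 10 neighbours below 0, and DTYMK is near 0 among neighbours of which 8 of 10 are above 0.

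Other enzymes of deoxynucleotide metabolism did not share one direction. Of 20 measured, 1 was 2-fold or more higher and none as much lower, with 12 above 0 and a median log2 ratio of 0.13. The one was AK3, a GTP:AMP phosphotransferase of the mitochondrial matrix, at 1802 in PTIP deficient and 797 in wild-type cells, 2.26-fold higher. Chosen after their values were seen, as partners of the 9 genes, SAMHD1, which degrades deoxynucleoside triphosphates, had a log2 ratio of 0.25, DGUOK, the mitochondrial deoxyguanosine kinase, 0.03, and DCTD, which deaminates dCMP to dUMP, -0.59. DCTD supplies the substrate of TYMS, and its signal was 2957 in PTIP deficient and 4452 in wild-type cells. ADA, adenosine deaminase, also chosen after its values were seen, had 14589 in PTIP deficient and 8344 in wild-type cells. Its log2 ratio was 0.81, and 1.03 with its second probe set. In the other direction, 8 of the 20 genes were below 0, the lowest being NT5C3A at -0.66.

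Among the measured genes of the 10 related lists, the largest differences were those of PRPS2, of the purine list, and GSR, of the reductase electron donors. The 13 measured genes of the purine list were of synthesis and salvage, the salvage genes being HPRT1, APRT and ADK. Of these 13, PRPS2, which makes phosphoribosyl pyrophosphate, was the one at least 2-fold apart. Its signal was 146 in PTIP deficient and 1251 in wild-type cells, 8.57-fold lower, and its 3 probe sets gave log2 ratios from -4.17 to -3.10. The PTIP deficient signals of the other probe sets, 80.6 and 45.8, were under the reporter level, so the size of their ratios is uncertain. The purine list had a median log2 ratio of 0.05. Of 9 measured thioredoxin and glutaredoxin genes, which deliver electrons to the reductase, GSR, glutathione reductase, was the one at least 2-fold apart, at 676 in PTIP deficient and 5513 in wild-type cells, 8.16-fold lower with 1 probe set. The median of that list was 0.10, but -0.04 under quantile normalization and -0.0048 under loess. The pyrimidine list also joined synthesis with salvage, the salvage genes being UCK1, UCK2, UCKL1 and UPRT. All 9 genes of that list lay within 2-fold, 7 of them above 0, with a median of 0.26. Among these, the uridine-cytidine kinases UCK2 and UCK1 had log2 ratios of 0.69 and 0.52. Of 12 measured folate cycle genes, GLDC was at least 2-fold lower, but its signals of 34.2 in PTIP deficient and 70.7 in wild-type cells were both under the reporter level, and the list median was -0.04. All 5 measured nucleoside and nucleotide transporters were within 2-fold. SLC25A36, a mitochondrial pyrimidine nucleotide carrier, had 0.67 with probe sets from -0.14 to 1.08, and SLC29A1, an equilibrative nucleoside transporter, had 0.31. The -0.14 came from a dim probe set, at 95.6 in PTIP deficient and 105 in wild-type cells, under the reporter level in both arrays.

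TK2, RRM2B and DGUOK serve mitochondrial DNA, and in humans the loss of any of them depletes it. Of 15 measured genes of mitochondrial DNA maintenance, 1 was 2-fold or more lower and none as much higher, with 11 below 0 and a median log2 ratio of -0.03. The one was MPV17, an inner membrane protein whose loss also depletes mitochondrial DNA in humans and mice. MPV17 had 443 in PTIP deficient and 900 in wild-type cells, 2.03-fold lower, and its 4 measured probe sets were all lower, from -1.19 to -0.67 on the log2 scale, with a mean of -0.95, which is within 2-fold. In contrast POLG, the mitochondrial DNA polymerase, chosen after its values were seen, had 768 in PTIP deficient and 496 in wild-type cells, a log2 ratio of 0.63. POLG was 1 of only 4 genes of the list above 0, the highest being OPA1 at 0.74. Among the 11 below 0, TFB2M, also chosen after its values were seen, was at -0.63.

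RRM2, TYMS and TK1 are targets of E2F factors in mammals, and the E2F and S phase list was mixed. Of 25 measured genes, 1 was 2-fold or more higher, 2 as much lower and 14 were below 0, with a median log2 ratio of -0.12. Chosen after their values were seen, MCM3, MCM5, MCM2 and MCM6, of the replicative helicase, had log2 ratios of -0.82, -0.76, -0.59 and -0.44. The other measured probe sets of MCM6 gave smaller differences, at -0.09 and -0.39. The cyclin genes CCNE2 and CCNE1, chosen likewise, had -0.63 and -0.57, and -0.36 and -0.35 with their second probe sets. Another 11 genes of the list were above 0, among them E2F7 at 0.71 and CDC25A at 0.24. TFDP2, a dimer partner of E2F factors, was 2.21-fold higher, at 4775 in PTIP deficient and 2160 in wild-type cells. E2F5, a mainly repressive E2F factor, was 2.08-fold lower, at 2052 in PTIP deficient and 4260 in wild-type cells, and the licensing factor CDT1 was 2.12-fold lower. The second probe set gave a log2 ratio of -0.92 for E2F5 and -0.80 for CDT1, and with the mean of their probe sets both lay within 2-fold. Of 8 measured genes of the ubiquitin ligases that act on cell cycle proteins, none was 2-fold apart and the median was -0.14. CCNF, the F-box protein that marks RRM2 for destruction in human cells, had a log2 ratio of -0.60 with its 2 probe sets from -0.63 to -0.60, and BTRC had -0.44.

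RRM2B was set beside the p53 pathway, of which 14 genes were measured, with a median log2 ratio of 0.19. Of these, 2 were higher by 2-fold or more and 1 lower by as much, beside 5.03% and 4.46% of all measured genes. The antiproliferative gene BTG2 was 3.34-fold higher and the stress-inducible GADD45A 2.82-fold higher. In contrast SESN1, a stress-inducible inhibitor of growth signalling, was 2.27-fold lower, and 2.13-fold lower with its second probe set (log2 ratios of -1.18 and -1.09). MDM2 and CDKN1A, the canonical p53 targets in mammals, were chosen after their values were seen. MDM2 had signals of 137 in PTIP deficient and 168 in wild-type cells with its brightest probe set, above the reporter level. Its second measured probe set had 66.2 in PTIP deficient cells, under the reporter level, and 132 in wild-type cells, a log2 ratio of -0.996. CDKN1A had 122 in PTIP deficient and 97.4 in wild-type cells, under the reporter level in each array. CCNG1, a brighter gene of the list chosen in the same way, had 4170 in PTIP deficient and 3428 in wild-type cells. Its 2 probe sets gave log2 ratios of 0.28 and 0.36. In all, 9 of the 14 genes were above 0 and 5 below. The genes of this list did not share one direction.

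**Figure D5:**
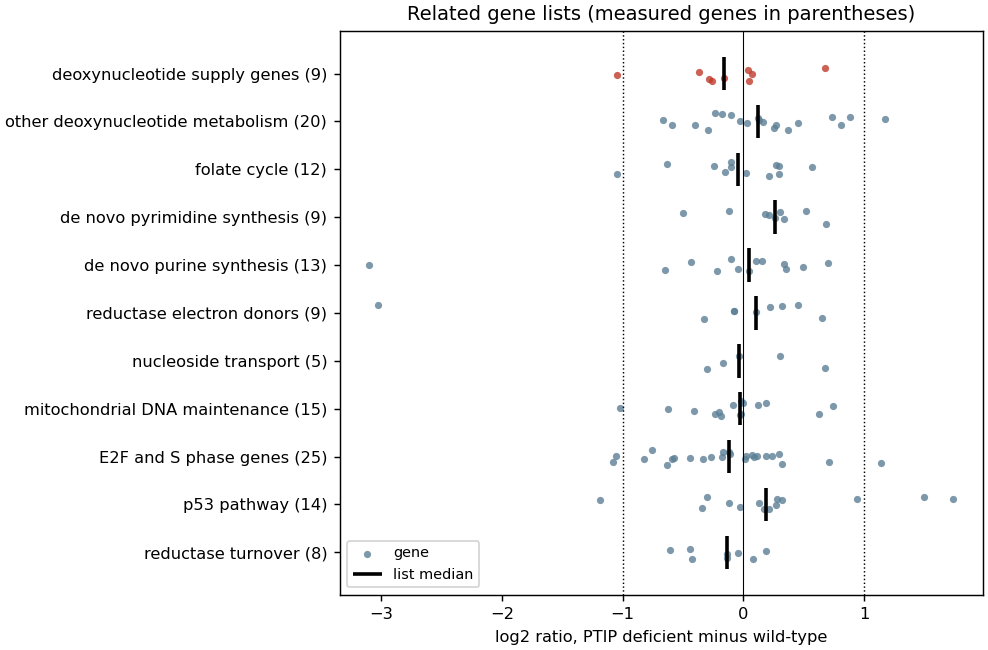
Log2 ratio (PTIP deficient minus wild-type) of each measured gene of the deoxynucleotide supply genes (red) and of 10 related lists (blue), black bars marking list medians and dotted lines 2-fold. The list medians lie between -0.16 and 0.26, and PRPS2 and GSR stand out near -3.

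All 15 B cell markers on the array reached the signal floor in both arrays. Of these, 5 had a signal lower by 2-fold or more in PTIP deficient cells, beside 4.46% of all measured genes. The list had a median log2 ratio of -0.63, and its summed signal was 28006 in PTIP deficient and 76153 in wild-type cells. The largest part of the wild-type sum came from IGLL1, at 3619 in PTIP deficient and 29961 in wild-type cells. The 5 were CD72, IGLL1, POU2AF1, CD79B and BCL6, with log2 ratios from -5.08 to -1.24, the lowest being that of CD72, whose signal of 87.4 in PTIP deficient cells was under the reporter level. In all, 12 of the 15 were below 0 and 3 above. Those above were IKZF3, PAX5 and CIITA. PAX5, at 122 in PTIP deficient and 96.7 in wild-type cells, was under the reporter level in both arrays. So was CIITA, at 40.3 in PTIP deficient and 33.3 in wild-type cells. Of 9 T cell markers on the array, 5 were measured in both arrays, and the summed signal of 17164 in PTIP deficient and 9460 in wild-type cells came mostly from CD3D, while CD8A was the one past 2-fold, at 563 in PTIP deficient and 78.2 in wild-type cells. CD4, LCK and CD28 were under the floor in both arrays. Of the other marker lists, 3 of 7 macrophage and granulocyte genes, 3 of 5 erythroid and thrombocyte genes and 4 of 8 mesenchymal and epithelial genes were measured in both arrays. Past 2-fold among them were SPI1, at a log2 ratio of -1.05, CYBB, at -2.57, and COL1A1, at 1.65, the signals of CYBB in PTIP deficient and of COL1A1 in wild-type cells being under the reporter level. HBE and HBA1 had log2 ratios of 0.88 and -0.14 from signals under that level in both arrays. The summed signal was 1634 in PTIP deficient and 3358 in wild-type cells for the macrophage and granulocyte list. Most of both values came from SPI1 alone, at 1429 in PTIP deficient and 2968 in wild-type cells. For the erythroid and thrombocyte list the summed signal was 402 in PTIP deficient and 386 in wild-type cells. For the mesenchymal and epithelial list it was 1502 in PTIP deficient and 363 in wild-type cells, and most of the first value came from LUM. The part of any of these differences in the values of the deoxynucleotide supply genes was not tested.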

How the data were processed

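RNA from 1 PTIP deficient and 1 wild-type DT40 culture was measured on single-label Affymetrix arrays, per the labels' protocols. The authors made the deposited intensities, which are linear and hold 1 value per probe set, with GCOS (named in the submitters' processing notes without a version). No scaling was added. The 96 manufacturer controls were left out, and genes came from the platform annotation, with 27168 probe sets having 1 symbol. Each gene was represented by its brightest probe set, judged by mean log2 signal. Log2 ratios are PTIP deficient minus wild-type, with 2-fold as the bar and no p-value. The number of arrays limits the precision. Chromosome and gene order came from RefSeq, assembly GRCg7b, which may differ from the build behind the array design.

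Of 225 symbols in 15 other lists, 181 were on the array. Named from each list were up to 5 measured genes at least 2-fold apart, otherwise the 2 furthest from 0, with exceptions marked. No gene was named for likeness of pattern, since 2 arrays give 1 ratio. The members and lists were chosen with earlier results of these data known. The 8 alternatives varied scaling (quantile, median, loess with span 0.3), floor and choice of probe sets, and the calculations were tested on simulated data. Protein and promoter sequences were not analysed here. Python 3.11.15, pandas 2.3.3 and statsmodels 0.14.6 were used.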

Additional observations from a re-analysis of the deposited data

Results flagged for a closer look

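The array carries 57 probe sets for reporters and markers, sequences that are not chicken genes, and 1 of them had a signal of 2675 in the PTIP deficient array against 5.54 in the wild-type array. The other 56 reached at most 101 in the PTIP deficient and 131.5 in the wild-type array. It is listed because it is a signal in data outside the comparison of genes, above the level in wild-type cells. The probe set is named by a sequence accession alone, which the tables used here do not pair with a gene, so what it reads, and whether it came with the disruption of PAXIP1, was not tested.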

How the results depend on the processing

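No paired analysis was possible because each genotype had 1 array. A ratio was taken as moved where it shifted by more than 0.14, the SD per bright probe set, and a median where it shifted by more than 0.1. With the mean of all measured probe sets DUT was at -0.58, the folate list at 0.11 and the nucleoside transport list at -0.17. Without _s_at and _x_at probe sets RRM1, TK2, DCK and DTYMK had no value, 0 of the 5 remaining members were at least 2-fold lower, their median was -0.26, and DUT was at -0.88. In that setting the electron donor list had a median of 0.0011 and the transport list -0.14. The electron donor median was -0.039 under quantile normalization and -0.0048 under loess. With the floor at percentile 60 the transport list was at 0.14, and 489 probe sets were at least 2-fold higher and 446 lower. With the floor at the reporter level the folate list was at 0.21 and the transport list at 0.31, with 385 probe sets higher and 342 lower. With no floor 6165 were higher and 5835 lower, against 994 and 952 in the analysis reported. TK2 stayed at least 2-fold lower in each of the 7 alternatives that measured it. With 1 probe set, its ratio could change only under quantile, median or loess scaling, and the other alternatives return it unchanged. No ratio past 2-fold of a member or of a gene named from the 10 related lists changed sign. Of the smaller ratios followed through the settings, 2 did. RRM1 went to -0.03 with the mean of its probe sets. SLC25A36 went to -0.14 without _s_at and _x_at probe sets, a value resting on a dim probe set under the reporter level in both arrays. MPV17, CDT1 and E2F5 lay near the 2-fold bar, their smallest differences being -0.95, -0.94 and -0.99. Higher floors leave fewer genes, and other causes of these shifts were not tested.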

Other observations

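The 10 measured genes nearest to RRM2 on chromosome 3 had a median log2 ratio of -0.31 and 7 of them were below 0, but HPCAL1, directly beside RRM2, and GRHL1 were past 2-fold in the other direction, at 1.30 and 1.32. The other 726 measured genes of that chromosome had a median of -0.03. TYMS on chromosome 2 also had 7 of 10 neighbours below 0, with a median of -0.20, among them THOC1, an mRNA export factor, at -0.36 and USP14, a proteasome-bound deubiquitinase, at 0.96. DUT on chromosome 10 had 7 of 10 neighbours below 0 with a median of -0.20, against 0.05 for the other 258 genes of the chromosome. TK1 on chromosome 18 was lower than each of its 10 neighbours, whose ratios ran from -0.23 to 0.81. RRM1 on chromosome 1 had 5 of 10 neighbours below 0. DCK on chromosome 4 had 6 of 10 neighbours below 0 with a median of -0.26, and 1 of them, JCHAIN, which encodes the joining chain of immunoglobulins, was at -7.45, with a deficient signal under the reporter level.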
